A study of Mus musculus with 2 samples.

Results

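The genes described here are 10 heat shock genes of mouse microglia: Hspa8, Hspa1a, Hspa1b, Dnajb1, Hsph1, Hsp90ab1, Hsp90aa1, Hspb1, Hspe1 and Hsf1. They were taken by name, as constitutive and inducible cytosolic chaperones together with the transcription factor HSF1, from the 53801 genes listed in each count file. Each symbol matched 1 Ensembl identifier, so all 10 were found. By its known location Hspe1 is an exception to the cytosolic grouping, because it encodes the co-chaperonin of the mitochondrial matrix. Counts came from 2 RNA-seq libraries of FACS-sorted microglia, each from 1 mouse, 3 days after sham surgery. Both mice were Cx3cr1(CreER/wt) on a C57BL/6 background, with a tamoxifen-inducible Cre recombinase in place of 1 Cx3cr1 allele, and no floxed gene was labelled in them. By the submitters' design text they were males of 8 to 10 weeks, given tamoxifen at 75 mg/kg per day for 4 days, and surgery followed 14 days after the first injection. The study's methods describe an older age range and both sexes, and the label for treatment reads "none" although each title names sham. Microglia were sorted as CD11c–Ly6G–CD11b+CD45low cells from the left hemisphere. The 2 libraries belonged to 1 group, so no condition was tested, and every difference below is a difference between 2 mice.

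Heat shock proteins bind unfolded or immature proteins and help them fold, assemble or be degraded. HSP70 proteins work in cycles of ATP use that J-domain proteins start and nucleotide exchange factors end, and they pass many clients on to HSP90. HSF1 is the factor that raises transcription of the inducible genes when unfolded protein accumulates, by binding repeats of inverted GAA units in their promoters. In brain tissue, warming and enzymatic dissociation are known to raise inducible heat shock transcripts. Cells here were dispersed with a dissociation kit in a heated dissociator, and RNA present in the tissue and RNA made during that step cannot be told apart in these libraries.

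Library 1 held 23381026 counts on genes and library 2 held 41142609, so that a count of 0 would allow up to 0.128 CPM (library 1) and 0.0729 CPM (library 2), CPM being counts scaled to a total of 1000000. At least 10 counts in both libraries were found for 13445 genes, among them all 10 heat shock genes. The 10 microglia markers summed to 3.91% and 4.44% of counts in libraries 1 and 2, and none was at 0. Of these, 1 (Sall1, 337 and 146 CPM) was past 2-fold lower in library 2 and the other 9 were within 2-fold. The 12 neutrophil markers summed to 0.459% and 6.21%, with each of the 12 more than 2-fold higher in library 2, although the gate left out Ly6G+ cells. The 5 monocyte markers summed to 676 and 3337 CPM, with 2 of 5 (Chil3 and Ly6c2) past 2-fold higher in library 2 and the other 3 within 2-fold. The 5 border macrophage markers summed to 417 and 216 CPM, with 2 of 5 (Mrc1 and Cd163) past 2-fold lower and the other 3 within 2-fold. Markers of astrocytes, oligodendrocytes, neurons and endothelial cells summed to between 3.08 and 224 CPM in each library. Fewer cells of a type and less RNA per cell cannot be told apart in such bulk samples. With totals that leave out the neutrophil markers, each gene's log2 ratio of CPM, library 2 over library 1, rises by 0.09. Only these 12 genes were left out, so any other RNA of neutrophils stayed in the totals. The same 2 heat shock genes, Hspb1 and Hsf1, were then past 2-fold between the libraries, beside 6.46% of all genes higher and 23.7% lower in library 2. RNA of neutrophils in the counts of the 10 genes themselves was not tested.

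Promoter sequences from RefSeq (GRCm38.p6) were at hand for 6 of the 10 genes, and 2-unit matches to the HSF1 element are shown because this element is what links these genes in the heat shock response. The letters searched were GAANNTTC and TTCNNGAA, in the 250 bases before each start site. Each is its own reverse complement, so that both strands were covered, and adjoining matches may overlap. At least 1 match lay upstream of 5 of the 6 genes (Hspa1a, Hspa1b, Hspb1, Hsph1 and Hspe1), and none lay in either annotated promoter of Dnajb1. Among all 32851 promoters of the table, 12.8% held at least 1 match. Hspe1 had 3 overlapping matches, which together make 4 alternating units, and 0.466% of all promoters held 3 units or more in such a row. In the stretches below, bases of a match are in capitals and the others in lower case, each written 5′ to 3′ on the strand of its gene.
Hspe1 promoter (chr1:55088053-55088082, plus strand): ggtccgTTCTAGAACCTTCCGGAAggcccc
Hspb1 promoter (chr5:135887790-135887841, plus strand): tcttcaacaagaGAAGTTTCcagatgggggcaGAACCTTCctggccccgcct
Hspa1a promoter (chr17:34972241-34972272, minus strand): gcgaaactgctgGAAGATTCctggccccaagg
Hspa1b promoter (chr17:34959323-34959354, minus strand): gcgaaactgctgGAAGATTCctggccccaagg
The stretch of Hspe1 also lies in an annotated first exon of Hspd1 on the opposite strand. The stretch was the same in Hspa1a and Hspa1b, at 104 bases before both start sites, and their upstream windows differed at 3 of 250 bases. A match is only a match of letters, and binding of HSF1 was not measured. Hspa8, Hsp90aa1, Hsp90ab1 and Hsf1 were not searched.

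Hspa8 encodes HSC70, the HSP70 that cells make without stress. It had 40752 counts (1743 CPM) in library 1 and 75553 counts (1836 CPM) in library 2. The mean was 1789.7 ± 66.1 CPM (SD, n = 2), a gap between the mice of 1.05-fold. Per length, in TPM (counts per kilobase of merged exons, scaled to a total of 1000000), Hspa8 had 1153 and 978 TPM, and its mean was above that of 99.2% of the 13445 genes. Hspa8 alone made up 48.3% of the counts of the 10 genes in library 1 and 53.6% in library 2. The gene lies on chromosome 9 of GRCm38 (40800984 to 40810087).

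Hspa1a and Hspa1b, neighbours on chromosome 17 (34969190 to 34972156 and 34956436 to 34959238), encode the inducible HSP70 and have a single exon each. For Hspa1a 2030 counts (86.8 CPM) were found in library 1 and 4923 (119.7 CPM) in library 2. Hspa1b had 2509 counts (107 CPM) in library 1 and 5959 (145 CPM) in library 2. Both were thus detected well above the limit in each sham mouse and both were higher in library 2, by 1.38-fold and 1.35-fold. The ratio of Hspa1b to Hspa1a counts was 1.24 in library 1 and 1.21 in library 2, and the log2 difference between these ratios was −0.03 (exact 95% counting interval −0.13 to 0.07). Per length Hspa8 stood 6.00-fold above the sum of Hspa1a and Hspa1b in library 1 and 4.64-fold in library 2. The constitutive HSP70 transcript therefore exceeded the inducible pair in both mice.

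How far Hspa1a and Hspa1b can be separated depends on their sequence. Without the stop codon their coding sequences had 1923 and 1926 bases and were 99.4% identical, with 8 differing bases and a gap of 3. Of the 75-base windows of Hspa1a, the length of a read in these libraries, 52.7% also occurred in Hspa1b. In no other annotated transcript were 38.3% found. Windows were taken singly although reads were paired, and placement of a read by its mate was not tested. For Hspb1 53.6% of windows were found in no other gene, for Hsp90aa1 57.2% and for Hspa8 66.9%, since annotated pseudogenes carry copies. Hspa8 shared windows with 14 other genes, of which Gm8355 had the most counts (94 and 211). Hsp25-ps1, which held 46.4% of the windows of Hspb1, had 1 and 3 counts. For Dnajb1, Hsph1 and Hsf1 every window was found in that gene alone. A read that fits several genes can be dropped or assigned to any of them, so levels of Hspa1a, Hspa1b, Hspb1, Hsp90aa1 and Hspa8 are uncertain in this respect. A 564-base stretch of the Hspa1a exon also overlaps Gm20481 on the opposite strand, which had 0 counts in both libraries.

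**Figure D1:**
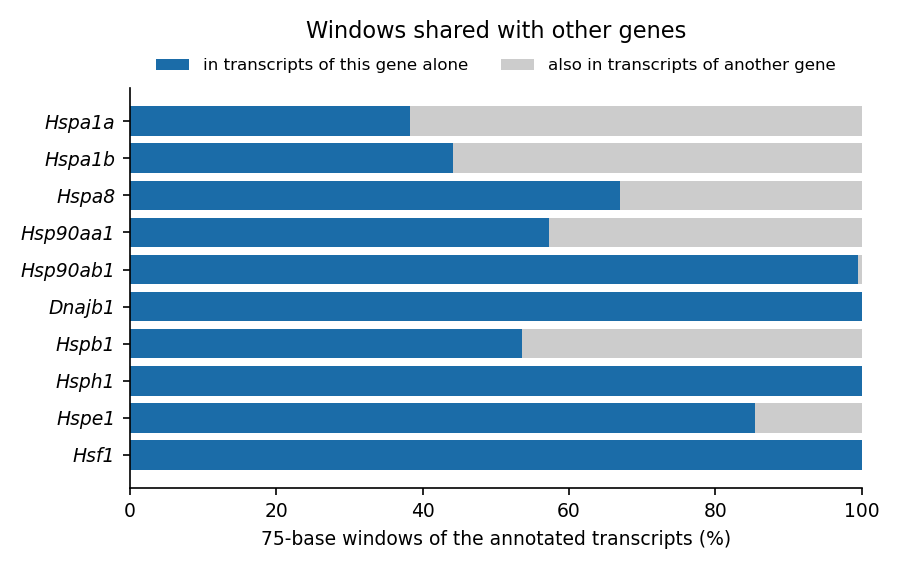
Share of the 75-base windows of all annotated transcripts of each gene (GENCODE M21, percent, horizontal axis) that occur in that gene alone (blue) or also in a transcript of another gene (grey). The share in the gene alone was 38.3% for Hspa1a, and 100% for Dnajb1, Hsph1 and Hsf1. Windows were taken singly, although reads were paired.

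Dnajb1 encodes the J-domain protein HSP40, a partner that starts the ATP cycle of HSP70. Dnajb1 was nearly equal in the 2 libraries, at 5252 counts (225 CPM) in the first and 9498 (231 CPM) in the other, or 228 ± 4.40 CPM (SD, n = 2). Relative to Hspa8 its counts gave a ratio of 0.129 in library 1 and 0.126 in library 2. The log2 difference between these ratios was −0.04 (exact 95% counting interval −0.09 to 0.02). The ratio of HSP40 to constitutive HSP70 transcripts was thus alike in the 2 libraries within counting error, which does not measure variation between mice. Dnajb1 lies on chromosome 8 (83608193 to 83612653).

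Hsph1 encodes HSP105, a large relative of HSP70 that serves as its nucleotide exchange factor. It had 566 counts (24.2 CPM) in library 1 and 805 (19.6 CPM) in library 2. Per length Hspa8 was 122-fold above Hsph1 in library 1 and 159-fold in library 2. Hsph1 (chromosome 5, 149614287 to 149636376) was thus far below Hspa8 in both mice, and its mean of 7.82 TPM was above that of 44.4% of all counted genes.

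The cytosolic HSP90 genes differed strongly in level from each other. Hsp90ab1, the constitutive HSP90β (chromosome 17, 45567775 to 45573271), had 27138 counts (1161 CPM) in library 1 and 35900 (873 CPM) in library 2. Hsp90aa1, the inducible HSP90α (chromosome 12, 110690605 to 110702728), had 3271 counts (139.9 CPM) in library 1 and 4809 (117 CPM) in library 2. Both were lower in library 2 on the CPM scale. Per length Hsp90ab1 was 10.9-fold above Hsp90aa1 in library 1 and 9.79-fold in library 2. Of the 75-base windows, 99.5% of those of Hsp90ab1 and 57.2% of those of Hsp90aa1 occurred in that gene alone. The effect of this on the fold was not tested. The difference between the mice in the count ratio of Hsp90aa1 to Hsp90ab1 was 0.15 on the log2 scale (exact 95% counting interval 0.08 to 0.22).

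Hspb1 encodes HSP25, a small heat shock protein that holds unfolding proteins without using ATP. It had the fewest counts of the 10, with 32 counts (1.37 CPM, exact 95% Poisson interval 0.936 to 1.93) in library 1 and 173 counts (4.20 CPM, 3.60 to 4.88) in library 2. Its level was 3.07-fold higher in library 2, and the intervals did not overlap. All intervals given here reflect counting alone, since reads copied by PCR do not stand for separate molecules. Per length Hspb1 had 3.78 and 9.35 TPM, and 40.6% of the counted genes had a lower mean TPM. Hspb1 lies on chromosome 5 (135887919 to 135889563).

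Hspe1 encodes HSP10, the lid of the mitochondrial chaperonin whose barrel is HSP60, the product of Hspd1. Hspe1 had 1274 counts (54.5 CPM) in library 1 and 2343 (56.9 CPM) in library 2. Hspd1, its neighbour on the opposite strand of chromosome 1, had 2269 counts (97.0 CPM) and 4275 (104 CPM). Per length the pair stood at nearly equal levels, with a ratio of Hspe1 to Hspd1 of 1.01 in library 1 and 0.982 in library 2. The log2 difference of their count ratios between the mice was −0.03 (exact 95% counting interval −0.16 to 0.09). The near equality per length rests on merged exon lengths, 1474 bases for Hspe1, whose longest transcript has 964. With the longest transcript as length Hspe1 had a mean of 116 TPM in place of 96.8. The ratio to Hspd1 with that length is not given here. The annotated exons of both genes overlap by 112 bases, 7.60% of the merged exons of Hspe1 (55088132 to 55091307). Whether the counting used strand is not given in the sources used here, so reads in that overlap could not be assigned with certainty.

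Hsf1 encodes the transcription factor itself. It had 1621 counts (69.3 CPM) in library 1 and 1074 (26.1 CPM) in library 2, although library 2 was sequenced more deeply. Hsf1 was 2.66-fold lower in library 2 (log2 ratio −1.41, exact 95% counting interval −1.52 to −1.30), and the mean of 47.7 ± 30.6 CPM (SD, n = 2) stands for neither library well. Per length it had 27.8 and 8.43 TPM, and its mean was above that of 62.7% of the counted genes. Hsf1 lies on chromosome 15 (76477422 to 76501913).

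**Figure D2:**
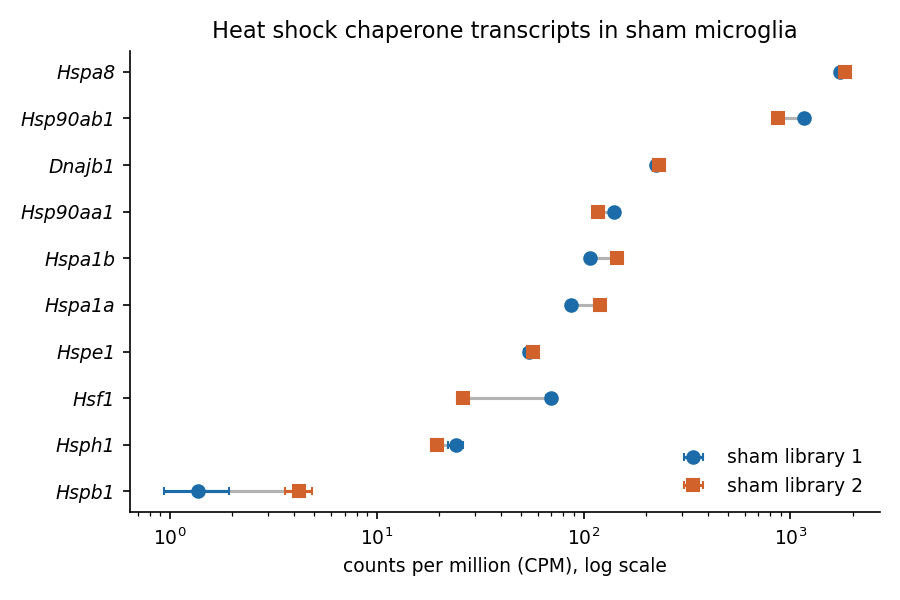
Levels of the 10 genes (vertical axis) in CPM on a log axis in sham library 1 (circles) and sham library 2 (squares), with exact 95% Poisson intervals as bars where they exceed the symbol. Hspa8 (1743 and 1836 CPM) and Hsp90ab1 (1161 and 873 CPM) hold most of the counts, and Hsf1 and Hspb1 show the widest gaps between the libraries.

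The 10 genes together took 0.361% of all counts in library 1 (exact 95% binomial interval 0.359% to 0.364%) and 0.343% in library 2 (0.341% to 0.345%). Per length, the mean order was Hspa8 (1066 TPM), Hsp90ab1 (884), Dnajb1 (182), Hspa1b (114), Hspe1 (96.8), Hspa1a (87.8), Hsp90aa1 (84.7), Hsf1 (18.1), Hsph1 (7.82) and Hspb1 (6.56 TPM). Neighbours whose ranges over the 2 libraries overlapped were Hspa8 and Hsp90ab1, Hspe1 and Hspa1a, Hspa1a and Hsp90aa1, Hsf1 and Hsph1, and Hsph1 and Hspb1. Within each library, however, Hspa8 was above Hsp90ab1 and Hsf1 above Hsph1. The order of the other overlapping pairs differed between the libraries. Hsp90ab1, Dnajb1, Hspa1b and Hspe1 stood apart from each other in this order, as did Hsp90aa1 from Hsf1. Between Hsp90ab1 and Dnajb1 lay a 4.85-fold step and between Hsp90aa1 and Hsf1 a 4.68-fold step. Only 4 of the 10 genes had the same rank in both libraries, and in library 2 Hspb1 (9.35 TPM) was above Hsf1 (8.43 TPM) and Hsph1 (6.17 TPM). With the longest transcript as length, Hspe1 moved ahead of Hspa1b and Hsp90aa1 ahead of Hspa1a, and the other 6 ranks did not change. Hsf1 then had a mean of 32.0 TPM in place of 18.1, and the step above it was 2.15-fold, so the size of that step depends on the length used. TPM was not used for ratios between the libraries, because the neutrophil markers took 1.61% of all TPM in library 1 and 15.9% in library 2. The mean order and the ranges above combine TPM of both libraries and so carry this shift, while the order within each library does not.

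Between the libraries, 2 of the 10 genes differed by more than 2-fold on the CPM scale, Hspb1 upward and Hsf1 downward in library 2. The background was 31.7% of the 13445 counted genes past 2-fold, with 5.74% higher and 25.9% lower in library 2. As measured in CPM, the share of the 10 genes past 2-fold was thus below that of all genes. This reading did not hold after the adjustment for GC content given below, where Hspa1a and Hspa1b were counted as 2 genes. The median log2 ratio of library 2 over library 1 was 0.05 for the 10 genes and −0.26 for all counted genes, whose middle 50% ran from −1.03 to 0.27. Relative to the median of all genes, Hspa1a lay at 0.73, Hspa1b at 0.70 and Hspa8 at 0.34. On the same scale Hsp90aa1 (0.00), Hsph1 (−0.04) and Hsp90ab1 (−0.15) lay near the median, and Hsf1 lay at −1.15. The common biological coefficient of variation between these mice, estimated by edgeR over 13455 genes, was 0.479.

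**Figure D3:**
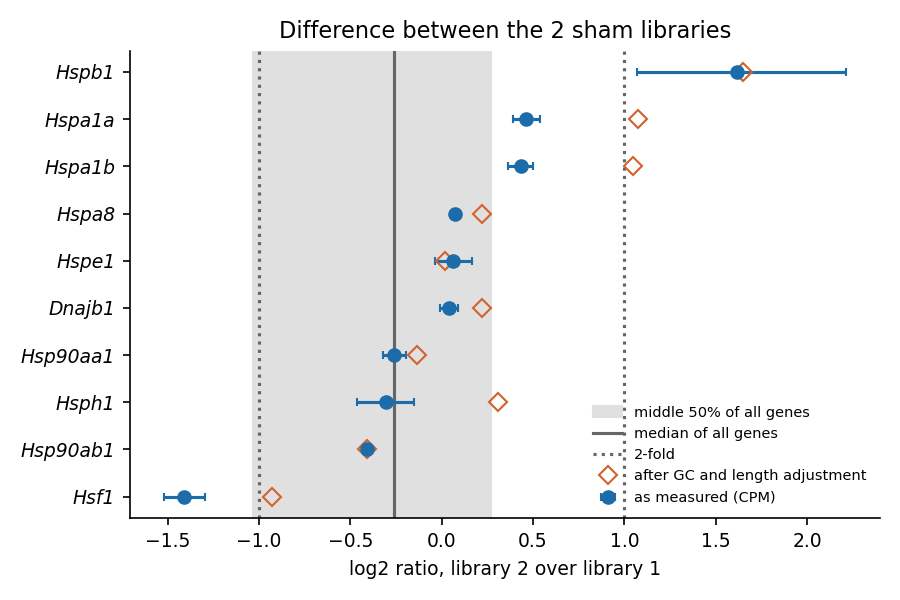
Log2 ratio of library 2 over library 1 (horizontal axis) for each gene, as measured in CPM with exact 95% counting intervals (filled circles) and after subtraction of the median of genes of like GC content and length (open diamonds). Beside the middle 50% and median of all 13445 counted genes as measured (grey band, solid line), only Hspb1 and Hsf1 of the 10 lie beyond 2-fold (dotted lines) as measured, and Hspa1a, Hspa1b and Hspb1 after the adjustment.

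The ratio between the libraries varied with the GC content of the transcripts, mostly in the GC-richest genes. Counted genes were put in 10 bins of GC content. In the bin with the highest GC content (57.3% to 74.0%) the median log2 ratio was −0.64, against −0.38 in the next bin and between −0.10 and −0.29 in the other 8. Over 13439 genes the correlation of ratio and GC content was weak (Pearson's r = −0.156), and over the 10 heat shock genes it ran the other way (r = 0.53, n = 10), both given as descriptions. Hspa1a (58.9% GC), Hspa1b (58.1%) and Hspb1 (61.7%) belong to this GC-rich bin, yet each was higher in library 2. After subtraction of the median of genes of like GC content and length, their log2 ratios were 1.08 for Hspa1a, 1.05 for Hspa1b and 1.65 for Hspb1. Hsf1 (53.4% GC) moved from −1.41 to −0.93 and fell inside the 2-fold bounds. With GC content alone, an alternative added after the values were seen, Hsf1 stayed past 2-fold at −1.12, and its GC bin had a median of −0.29, near that of all genes. After the GC and length adjustment 3 of the 10 genes (Hspa1a, Hspa1b and Hspb1) were past 2-fold, all higher in library 2, beside 22.4% of all genes in either direction, 9.70% higher and 12.7% lower. With GC content alone 4 of the 10 were past 2-fold, beside 28.2% of all genes, 9.06% higher and 19.1% lower. With 10 genes these shares are descriptions. The 3 GC-rich genes made up the count after the GC and length adjustment, and the same 3 with Hsf1 the count after GC alone. Among the GC-rich genes, Hspa1a and Hspa1b share much of their sequence and lay just past the bound, so they are not 2 separate measurements. Hspa8, Hspe1, Dnajb1, Hsp90aa1, Hsp90ab1 and Hsph1 stayed within 2-fold as measured and after either adjustment.

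**Figure D4:**
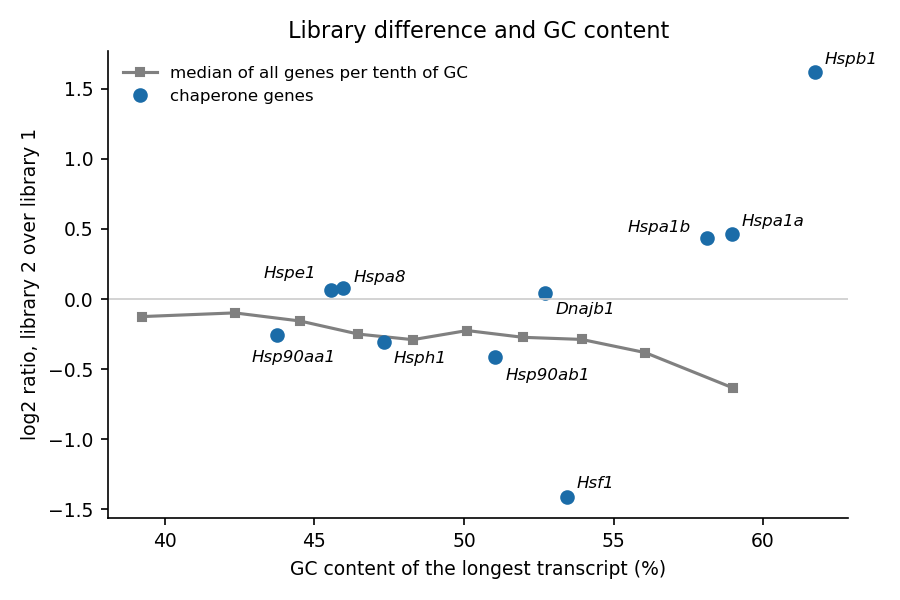
GC content of the longest transcript (percent, horizontal axis) and log2 ratio of library 2 over library 1 (vertical axis) for the 10 genes (blue circles). Grey squares give the median ratio of all counted genes in each of 10 bins of GC content, placed at the bin's median GC, which was −0.64 in the GC-richest bin, where Hspa1a, Hspa1b and Hspb1 lie at 0.46, 0.43 and 1.62.

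The rest of the chaperone system was described from 9 lists with 77 further genes, of which 67 had at least 10 counts in both libraries. As measured in CPM, 1 of these 67 was past 2-fold higher in library 2 and 5 were lower. That was 8.96% in either direction, beside 31.7% of all genes. After the GC and length adjustment Hyou1 (−2.98) and Cryab (1.11) stayed past 2-fold, and Fkbp5, Bag4, Dnajc5 and Dnajb5 did not. Hspa4l (1.37), Chordc1 (1.36), Sugt1 (1.26), Dnaja1 (1.23), Pfdn4 (1.18), Cdc37 (1.11) and Ppid (1.01) were past 2-fold higher, named after values were seen. Against this, 9.70% of all genes were then higher and 12.7% lower. Counts by list below are as measured. The median log2 ratio of the 67 was −0.03, and 0.04 after adjustment.

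Among other HSP70 and HSP110 genes, Hspa5, the HSP70 of the endoplasmic reticulum, stood at 2191 CPM in library 1 and 1835 CPM in library 2. Hspa9, the mitochondrial HSP70, had 140.1 and 101 CPM. Hyou1, an HSP110 of the endoplasmic reticulum, had 127 CPM in the first library and 8.34 CPM in the other, the largest gap of the 67 counted genes (log2 ratio −3.93). The other 8 counted genes of this list stayed within 2-fold. Of the HSP90 relatives, Hsp90b1 of the endoplasmic reticulum had 622 and 455 CPM and the mitochondrial Trap1 63.3 and 61.5 CPM.

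Of the 12 HSP90 co-chaperones, 11 stayed within 2-fold as measured in CPM. Cdc37, which brings kinases to HSP90, had 169 and 158 CPM. Fkbp4, a co-chaperone of steroid receptors, had 158 and 143 CPM. Its relative Fkbp5, which glucocorticoids induce, was at 72.4 and 26.3 CPM (log2 ratio −1.46), beside −1.41 for Hsf1. After the GC and length adjustment Fkbp5 lay at −0.72, inside the 2-fold bounds, beside −0.93 for Hsf1. Chordc1 (1.36), Sugt1 (1.26), Cdc37 (1.11) and Ppid (1.01) were then the co-chaperones past 2-fold, all higher in library 2.

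HSP70 cofactors were led by St13, which encodes HIP, with 185 and 126 CPM, and by Bag1, a nucleotide exchange factor, with 103 and 79.7 CPM. Bag4 had the largest gap of that list, with 11.7 and 5.78 CPM, and was the 1 of 9 past 2-fold. Other J-domain genes were led by Dnajb11, a partner of Hspa5, with 213 and 187 CPM, and Dnaja1, a cytosolic HSP40, with 149 and 243 CPM. In that list 2 of 15 were past 2-fold, both lower in library 2. These were Dnajc5, which encodes cysteine string protein (158 and 43.9 CPM), and Dnajb5 (29.1 and 8.17 CPM), which was named after its value was seen.

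The 8 other small heat shock genes summed to 17.7 and 29.8 CPM, and 3 of them had at least 10 counts in both. Hspb3 had 11.8 and 18.5 CPM and Hspb6 3.89 and 5.57 CPM. Cryab, which encodes αB-crystallin, had 39 counts in library 1 and 177 in library 2, so that Cryab and Hspb1 were both higher in library 2. Of 5 genes for other heat shock factors and their regulator, 2 were counted. Hsf2 had 5.09 and 3.55 CPM. Hsbp1, whose product binds HSF1 and restrains it, had 198 and 234 CPM.

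Of the chaperonins, 9 of 9 were within 2-fold, with a median log2 ratio of −0.02. Cct7 and Cct8, subunits of the cytosolic ring that folds actin and tubulin, had 258 and 281 CPM and 254 and 271 CPM. Cct5 had the largest gap of the list, with 279 and 229 CPM. Of the prefoldins, which hand clients to that ring, 6 of 6 were within 2-fold, with a median log2 ratio of 0.46. Among them Pfdn5 had 86.1 and 95.5 CPM and Vbp1 67.3 and 102 CPM.

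**Figure D5:**
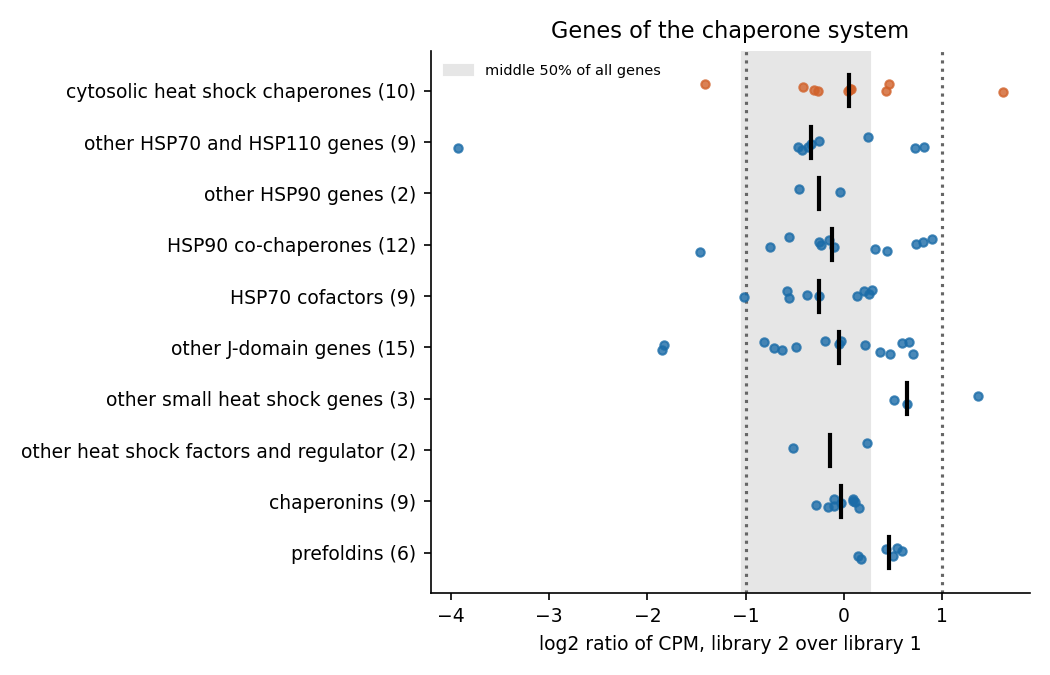
Log2 ratio of CPM, library 2 over library 1 (horizontal axis), for each gene with at least 10 counts in both libraries, by list (number of genes in brackets). Black bars are list medians, the grey band is the middle 50% of all 13445 counted genes and dotted lines mark 2-fold. The 10 heat shock genes (orange) spread from −1.41 to 1.62, and the 9 chaperonins lie within 2-fold.

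The genes nearest to Hspa1a in level over the 2 libraries, by Euclidean distance of log2(CPM + 1), were Ndufa4 (distance 0.028), Psmd14 (0.030) and Vrk1 (0.048). Those nearest to Hspa8 were Pdia3 (0.015), Ifngr1 (0.085) and Fcer1g (0.094). With 2 libraries this likeness is one of level and of a single ratio.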

How the data were processed

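RNA of FACS-sorted microglia was copied to cDNA with the SMART-Seq HT Kit and sequenced as paired 75-base reads. The authors mapped reads with HISAT2 to GRCm38 and used HTSeq for counting per gene. The values deposited are thus counts without normalization, and versions, annotation release and strand setting are not given in the sources used here. Both samples were assigned to sham microglia from their titles. Symbols came from GENCODE M21 (GRCm38) and matched 53620 of 53801 identifiers. Deposited starts count from 0 and are given here from 1. CPM were scaled to the sum over genes (1000000), and TPM were computed from counts and merged exon lengths. A gene was counted with at least 10 counts in both libraries. Depth was 23381026 and 41142609 counts, so precision is higher in library 2. Intervals of CPM are exact Poisson, those of ratios exact binomial or conditional, those of shares exact binomial (Clopper-Pearson), all at 95%. With 1 group no test was run, and edgeR 4.0.16 gave only the coefficient of variation and TMM sizes, DESeq2 1.42.0 size factors. Other alternatives were totals without mitochondrially encoded or neutrophil marker genes, Hspa1a and Hspa1b summed, longest transcript as length, other folds and filters, leaving out a library, and a GC and length adjustment (medians of 10 by 10 bins, or of GC bins alone under 20 genes), which was tested on simulated data. A GC adjustment alone was added after the data were seen. Windows were compared over GENCODE M21 transcripts on both strands. The coding sequences of Hspa1a and Hspa1b were aligned with biopython 1.88. Software was Python 3.11.15 and R 4.3.3 with numpy 2.4.6, pandas 2.3.3, scipy 1.17.1 and matplotlib 3.10.9. Named were the 10 genes, in each chaperone list the 2 genes of highest mean CPM and the gene with the largest ratio among those with a mean of at least 100 counts, genes sharing windows with a member, and the 3 genes nearest to Hspa1a and to Hspa8. Members and lists were chosen with earlier results of these data known.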

Additional observations from a re-analysis of the deposited data

How the results depend on the processing

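No paired analysis was possible because both libraries belong to 1 group. The number of the 10 genes past 2-fold was 2 with TMM, DESeq2 size factors, either reduced total, Hspa1a and Hspa1b summed, or 1.5-fold as the bound. It was 3 after the GC and length adjustment (9.70% of all genes higher, 12.7% lower). After a GC adjustment alone (9.06% and 19.1%), which was added after the data were seen, it was 4. With 3-fold as the bound it was 1, where a stricter bound can only lower it. The share of all genes past 1.5-fold or 3-fold is not given here, so the counts at those bounds have no background. As measured, the share past 2-fold was thus below that of all genes. With Hspa1a and Hspa1b counted as 2 genes, it was above that of all genes after both adjustments. These 2 genes share much of their sequence and lay just past the bound (1.08 and 1.05 after the GC and length adjustment). The adjusted share with the pair summed is not given here, so no reversal is read from it. The median log2 ratio of 0.05 moved to 0.28 with TMM, 0.33 with DESeq2 size factors, 0.22 after the GC and length adjustment and 0.27 after GC alone. These scalings add 0.23 (TMM) and 0.27 (DESeq2) to every gene, and the median of all genes was −0.03 and 0.01 with them. With DESeq2 size factors Hsp90aa1 changed sign to 0.02, and after the GC and length adjustment Hsph1 changed sign to 0.31. With TMM 8.32% of all genes were past 2-fold higher and 20.1% lower, and with DESeq2 size factors 9.22% and 19.0%. With totals without mitochondrially encoded genes these shares were 5.70% and 26.0%, and without the neutrophil marker genes 6.46% and 23.7%. The median level of the 10 genes, 115 CPM, was 97.1 to 118 CPM with 1 library left out, and their share of counts 0.343% to 0.361%. The background past 2-fold was 29.3% with at least 50 counts and 38.0% with at least 1. Every ratio needs both libraries, so none could be had with 1 left out, and each mean rests on 2 values.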
